A study of Arabidopsis thaliana with 16 samples.

Results

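At day 14 of induction (D14I), *vtc2* tissue was compared with wild-type (WT) tissue on 4 of the 16 arrays of the series, 2 of each genotype, chosen by the developmental stage in their labels. All 4 arrays hold Col-0 material. Embryos dissected at the bent-cotyledon stage had been kept for 14 d on medium with the synthetic auxin 2,4-D, and the tissue was taken before the move to hormone-free medium, so both genotypes shared the auxin treatment and its length. The mutant is a single T-DNA insertion allele, *vtc2-5*, and an effect of the allele cannot be told apart from that of any other change in the line. The other 12 arrays hold the same 2 genotypes as bent-cotyledon zygotic embryos (ZE), explants at day 7 of induction (D7I) and mature somatic embryos (SE), with 2 arrays each. The tissue was measured in bulk, so fewer cells of a type and less RNA per cell cannot be told apart. The labels call the arrays of a group biological replicates, and the number of explants behind each array was not given, so the p-values measure only the spread between these samples.

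*VTC2* encodes GDP-L-galactose phosphorylase, the enzyme that largely sets the rate of ascorbate synthesis in leaves. Ascorbate is the main soluble antioxidant of plant cells and a cofactor of enzymes that make hormones and modify the cell wall. In somatic embryogenesis, auxin turns the cells of an explant into dividing callus from which young embryos arise, and these mature on medium without auxin. The end of induction is thus the last point before maturation.

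Transcripts were measured on ATH1 GeneChips, which report each gene as a probe set signal. The deposited signals are on a linear scale, with a 2% trimmed mean of 500 on every array. The median signal was 160.5 and 161.4 on the WT arrays and 159.6 and 170.7 on the *vtc2* arrays, within the range of 147.5 to 198.7 over the series. Of the probe sets, 70.4 to 76.0% had a signal above 30, below which signals are here called weak. The 3′ to 5′ ratio of the actin control was 1.73 to 2.06 on these 4 arrays, against 2.24 to 5.05 on the other 12. *VTC2* itself was not analysed here, so the labels were not checked against the mutated gene.

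Array 2 of each genotype stood apart from array 1 in a way the labels do not name. The 25S ribosomal RNA control read 10828.7 on WT array 1 and 9060.5 on *vtc2* array 1, but 2308.9 and 1292.3 on the arrays numbered 2. Plastid-encoded transcripts, described further on, moved the opposite way. The part of this difference in the results below was not tested, and each result that rests on 1 array is given with that array named.

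Markers of callus were read to check the label. Of 10 markers of auxin-induced callus, 5 had a probe set. *LBD16*, a lateral organ boundary factor needed for callus formation, read 1985.9 and 1769.3 in WT and 1527.3 and 1339.8 in *vtc2*, against a mean of 190.4 in WT zygotic embryos. *GH3.3*, an auxin-conjugating enzyme, read 6501.4 and 7135.6 in WT and 6029.2 and 5740.0 in *vtc2*. *LBD29*, a relative of *LBD16*, was weak on all 4 arrays, with 2.54 and 5.30 in WT and 1.58 and 11.8 in *vtc2*, against a mean of 8.77 in WT zygotic embryos. The summed signal of these 5 markers, most of it from *GH3.3*, was 9382.4 and 9796.6 in WT and 7995.8 and 7510.4 in *vtc2*. Of the 5, 4 lay lower on both *vtc2* arrays, against 19.6% of all probe sets, and none passed the test described below. Markers of other tissues were read as sums. Of 10 mesophyll markers 3 had a probe set, and their summed signal was 172.4 and 137.6 in WT and 281.4 and 254.6 in *vtc2*. For 3 of 6 stomatal markers it was 7.80 and 15.8 in WT and 9.78 and 48.6 in *vtc2*, the highest on *vtc2* array 2 alone. For 2 of 5 root hair markers it was 50.3 to 91.9 over the 4 arrays. Of 6 shoot meristem markers only *CLV3* had a probe set, and it read at most 17.5. Of the markers of embryo identity, seed storage, phloem and xylem, 0 had a probe set, so these could not be read. Of the epidermal markers only *FDH*, a ketoacyl-CoA synthase of the epidermis, had a probe set, with 1617.8 and 1475.8 in WT and 1002.3 and 859.9 in *vtc2*.

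By correlation over all probe sets, the 2 genotypes were nearly as alike at D14I as the replicates of 1 genotype. Over 22746 probe sets, the correlation of log2 signals was 0.96 between the WT arrays and 0.95 between the *vtc2* arrays, and ran from 0.95 to 0.96 between arrays of different genotype. The median difference between 2 arrays was 0.22 (log2) within WT, 0.25 within *vtc2* and 0.29 to 0.30 across genotypes. At D7I the same measure was 0.34 within WT, 0.24 within *vtc2* and 0.43 to 0.57 across genotypes. The genotypes were less alike than replicates where signals were stronger. Among probe sets with a geometric mean signal of at least 100 at D14I, 0.47% were 2-fold apart between the WT arrays. This share was 0.856% between the *vtc2* arrays and 1.39 to 1.79% across genotypes. Of the 12294 probe sets with a signal of at least 100 on all 4 arrays, 99.5% differed by less than 2-fold between the genotype means. At D7I this share was 91.6%, and it was 99.2% in zygotic embryos and 93.2% in somatic embryos.

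Only 5 probe sets passed the test, which asked for an adjusted p under 0.05 in limma and a difference of at least 2-fold. Of these, 4 were higher in *vtc2* (0.0176% of those tested) and 1 was lower (0.0044%). Without *vtc2* array 2 the split was 0 higher and 4 lower, and with 30 added to every signal it was 0 higher and 1 lower. An unadjusted p under 0.05 was reached by 1024 probe sets, or 4.5%. At D7I the same fit called 451 higher and 163 lower, in somatic embryos 384 and 490, and in zygotic embryos 2 and 6. The median log2 difference over all probe sets at D14I was 0.02.

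**Figure D1:**
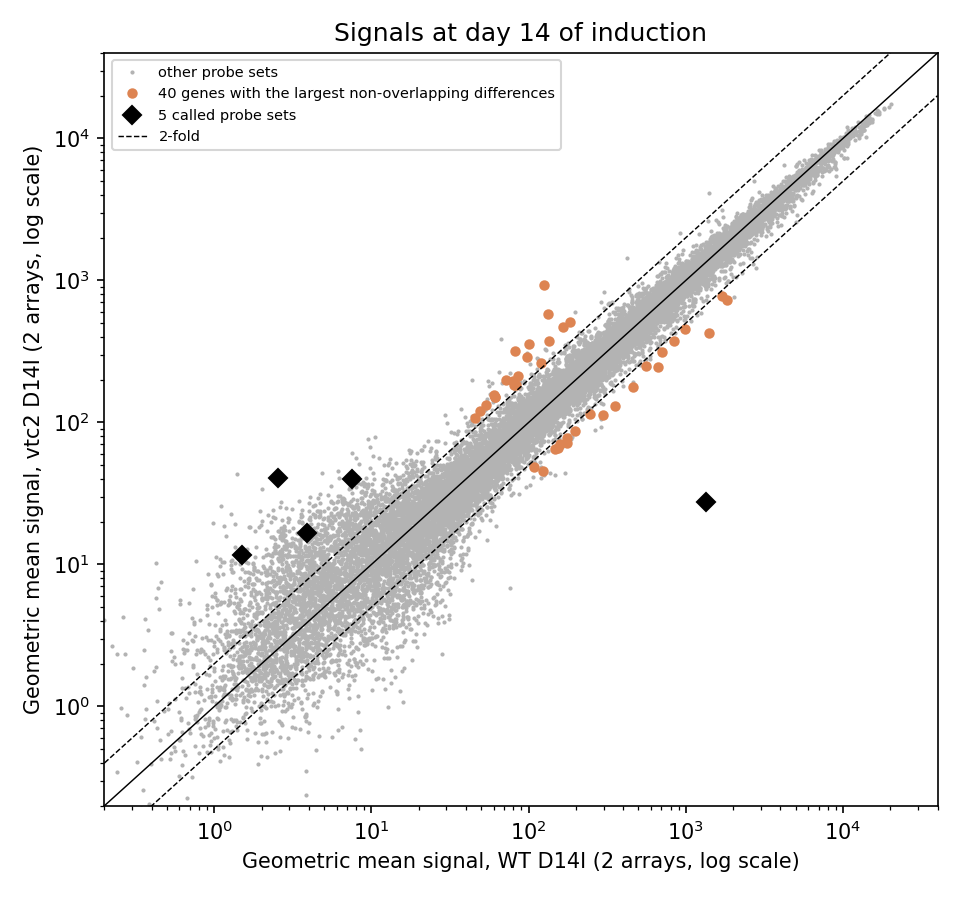
Each point is a probe set, placed by its geometric mean signal over the 2 WT arrays (x, log scale) and the 2 *vtc2* arrays (y, log scale) at D14I; dashed lines mark a 2-fold difference. The cloud widens at weak signals, and 4 of the 5 called probe sets (black diamonds) read below 60 on all 4 arrays, while the 40 named genes with the largest non-overlapping differences (orange) lie between 2.15- and 7.46-fold from equality.

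The only called probe set that is paired with a gene was *AT1G75460*, an ATP-dependent protease of the Lon family by its domains. It read 4.83 and 3.09 in WT and 18.1 and 15.1 in *vtc2*. The groups did not overlap, but all 4 signals were weak, and the difference of 2.1 ± 0.22 (log2, SE, adjusted p = 0.0193) fell to 0.46 with an adjusted p of 0.614 once 30 was added to every signal. At D7I it was higher as well, with 3.38 and 2.94 against 25.5 and 24.0 (adjusted p = 0.00167). At D14I it kept its call without WT array 1 (adjusted p = 0.0338) and lost it without WT array 2 (0.062), *vtc2* array 1 (0.10) or *vtc2* array 2 (0.0668) by limma's adjusted p. The largest called difference belonged to a probe set that the annotation used here pairs with no gene. It read 1309.1 and 1393.0 in WT and 25.6 and 29.8 in *vtc2* (log2 difference of -5.61, adjusted p = 0.0398), and was the only call with a strong signal in either genotype. With 30 added to every signal it kept its call (-4.58, limma's adjusted p = 0.0275). It was also lower in *vtc2* at the other stages, by -4.51 in zygotic embryos (adjusted p = 0.0756), -5.56 at D7I (0.0071) and -6.06 in somatic embryos (0.00498), so it was not particular to D14I. The other 3 called probe sets are not paired with a gene either, and read at most 8.54 in WT and at most 54.3 in *vtc2*.

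A 2-fold difference by itself is common at D14I, with 1406 probe sets higher and 888 lower. Most of these are weak. In 1086 of the former and 698 of the latter, even the higher genotype had a mean signal under 30. Both *vtc2* arrays lay above both WT arrays for 21.5% of all probe sets and below them for 19.6%. When a 2-fold difference, no overlap and a signal of at least 100 on both arrays of the higher genotype were asked for together, 72 probe sets remained higher in *vtc2* and 64 lower. The 20 named genes with the largest such differences each way are described next. They were chosen by their size at D14I, so their differences there are a description, and adjusted p ran from 0.26 to 1.0 over the genes that were higher and from 0.333 to 1.0 over those that were lower.

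**Figure D2:**
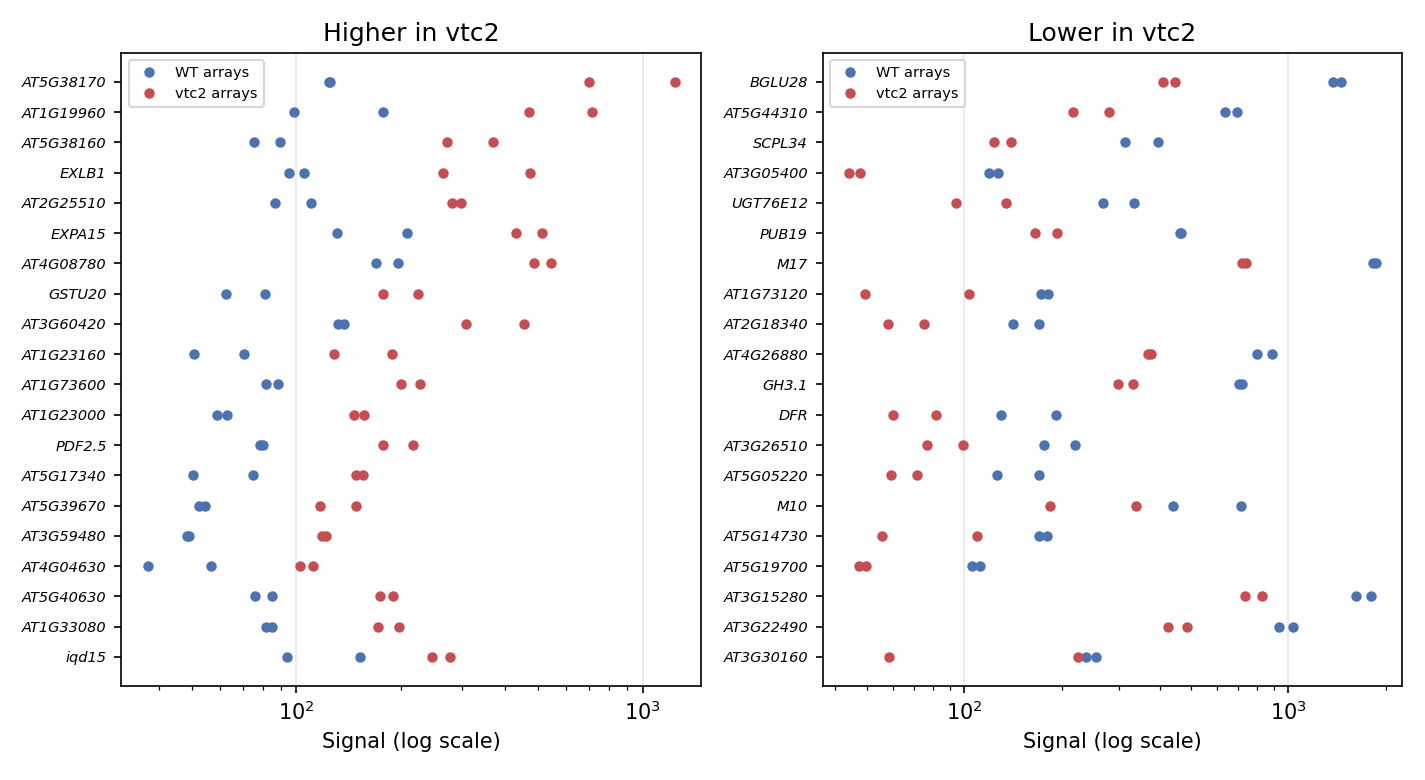
Signals (log scale) of the 20 genes with the largest non-overlapping difference in each direction at D14I, with WT arrays in blue and *vtc2* arrays in red. Replicates lie close together for most genes, and *AT3G30160* and *AT1G73120* show the widest gap between the *vtc2* arrays.

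Among the genes with higher signals in *vtc2*, lipid transfer proteins came first. *AT5G38170*, of the family of lipid transfer proteins and seed albumins, read 124.1 and 125.2 in WT and 697.5 and 1238.7 in *vtc2*, a 7.46-fold difference. Its neighbour on chromosome 5, *AT5G38160*, of the same family, read 89.5 and 75.7 against 272.9 and 369.3. The replicates at D14I were close, yet the standard error was 1.64 (log2) for *AT5G38170*, because the spread is shared with groups such as WT somatic embryos, where its replicates read 1.14 and 118.1. Without the somatic embryo arrays the standard error was 0.67 and the adjusted p 0.493. Both are among the brightest transcripts of zygotic embryos, with WT means of 21864 for *AT5G38170* and 18654 for *AT5G38160*. Related sequences can share probes, so the pair may not be independent.

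Cell wall loosening proteins were also among these higher genes, while other expansins were lower in *vtc2*, as given further on. *EXPA15*, an expansin, read 209.2 and 131.2 in WT and 431.9 and 513.3 in *vtc2*, a difference of 1.51 ± 0.28 (adjusted p = 0.30). *EXLB1*, an expansin-like protein, read 95.4 and 105.4 against 264.6 and 474.3. The class III peroxidase *AT4G08780* read 169.6 and 196.9 against 543.0 and 484.0, and at D7I its mean was 67.9 in WT and 470.2 in *vtc2*. *GSTU20*, a glutathione transferase of the tau class, read 62.7 and 81.3 against 177.7 and 225.2. That none of these overlapped between genotypes was a condition of their choice, and none passed the test.

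Several of the others act in transport, defence or auxin metabolism. *AT1G33080*, of the MATE efflux family, read 85.3 and 81.8 in WT and 171.6 and 197.7 in *vtc2* (adjusted p = 0.30). *AT1G23000*, a heavy metal-associated domain protein, read 59.0 and 62.9 against 146.9 and 156.5, and had the smallest adjusted p of the group, 0.26. *PDF2.5*, a defensin-like peptide, read 78.5 and 79.9 against 177.9 and 216.6. *AT5G39670*, a calcium-binding EF-hand protein, read 54.5 and 52.3 against 148.7 and 117.0. *AT1G23160*, of the GH3 family of auxin-conjugating enzymes, read 70.6 and 50.8 against 128.3 and 188.9. Another GH3 family gene, *AT5G51470*, was weak in WT (13.3 and 6.79) and read 63.8 and 91.4 in *vtc2*. The 95% confidence interval of this 8.02-fold difference ran from -0.19 to 6.20 (log2). With 30 added to every signal the difference fell from 3.00 to 1.42 (log2).

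Among the 20 genes chosen for lower signals in *vtc2*, the largest difference was that of *BGLU28*, a beta-glucosidase that belongs to a group able to cleave glucosinolates. It read 1376.1 and 1449.1 in WT and 409.9 and 445.1 in *vtc2*, 3.31-fold lower, with a difference of -1.73 ± 0.41 (adjusted p = 0.475). With 30 added to each signal the adjusted p was 0.0803. Its mean was 8889 in WT and 6174 in *vtc2* at D7I, and 229.7 and 70.2 in somatic embryos. The ubiquitin ligase *PUB19*, known for a role in drought and abscisic acid responses, read 462.5 and 467.4 against 165.2 and 193.3 (-1.38 ± 0.27, adjusted p = 0.333). It was also called lower at D7I, where the mean was 374.3 in WT and 153.7 in *vtc2* (adjusted p = 0.0441).

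Late embryogenesis abundant (LEA) proteins, which protect cells as seeds dry, were among the lower genes. *M17* read 1864.7 and 1820.5 in WT and 737.9 and 717.8 in *vtc2*. *M10* read 712.4 and 438.9 against 183.3 and 338.2. The LEA family genes *AT5G44310*, *AT2G18340* and *AT3G22490* read 692.9 and 637.4 against 279.7 and 216.9, 141.0 and 169.7 against 74.9 and 58.3, and 937.0 and 1031.2 against 486.4 and 425.0. That no pair of groups overlapped was a condition of their choice. Their standard errors were 1.25 to 2.43 (log2), close to or above the size of the differences, and the WT somatic embryo arrays differed widely for most of these genes (2.68 and 326.1 for *AT3G22490*). Without the somatic embryo arrays limma's adjusted p was 0.515 for *AT2G18340*, 0.68 for *AT5G44310*, 0.932 for *M10*, and 0.999 for *M17* and *AT3G22490*.

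Other genes with lower signals act in auxin, sugar and phenolic metabolism. *GH3.1*, an auxin-conjugating enzyme, read 702.3 and 717.1 in WT and 330.2 and 297.3 in *vtc2*, while at D7I its mean was 1207 in WT and 1202.5 in *vtc2*. *AT3G05400*, a sugar transporter of the major facilitator family, read 118.9 and 127.1 against 47.7 and 44.0. *DFR*, dihydroflavonol reductase of anthocyanin synthesis, read 130.1 and 191.8 against 60.4 and 81.5. *UGT76E12*, a glycosyltransferase, read 334.4 and 268.2 against 134.4 and 93.9, and the serine carboxypeptidase-like *SCPL34* 314.0 and 395.8 against 139.3 and 123.0. *AT5G19700*, a MATE efflux protein, read 111.4 and 105.2 against 49.7 and 47.2. Thus MATE family members stood on both sides.

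Gene lists were compared by their counts and medians with those of all probe sets. Of 31 lists, 15 had at least 5 probe sets paired with a gene, and 0 of their members passed the test in either direction.

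**Figure D3:**
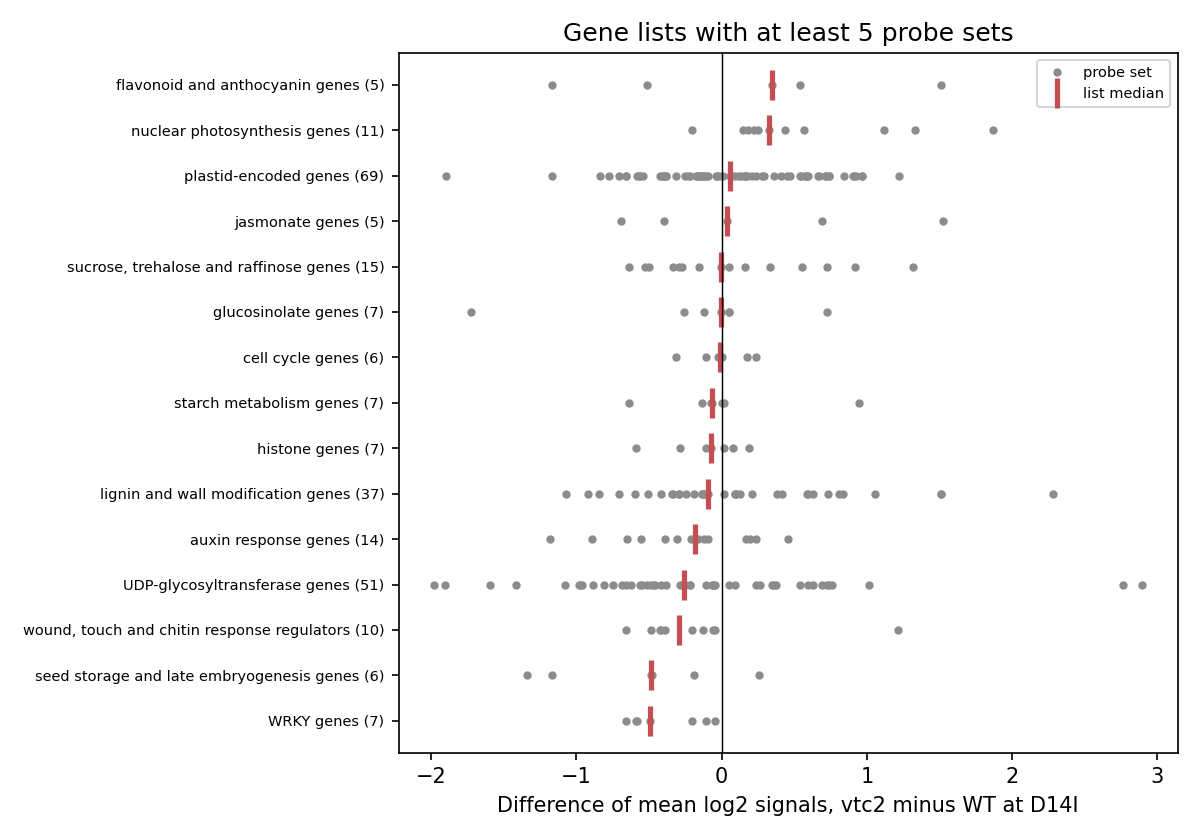
Difference of mean log2 signals (*vtc2* minus WT at D14I) for each probe set (grey) and the median (red) of the 15 gene lists with at least 5 probe sets, whose number stands in parentheses. WRKY genes have the lowest median, -0.49, and flavonoid genes the highest, 0.35; no probe set shown passed the test.

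Nuclear genes of photosynthesis lay mostly higher in *vtc2*, and none passed the test. Of 11 probe sets, 7 were above WT on both arrays and 0 below, against 21.5% and 19.6% of all probe sets, and the median difference was 0.32 against 0.02. *LHCB4.2*, an antenna protein of photosystem II, read 21.6 and 9.40 in WT and 52.7 and 51.2 in *vtc2* (1.87 ± 0.33, adjusted p = 0.30). It passed only when WT array 1 was left out (2.47, adjusted p = 0.0388). *SBPASE*, a Calvin cycle enzyme, read 27.7 and 57.5 against 85.7 and 87.8, and *RCA*, Rubisco activase, 137.7 and 124.9 against 220.2 and 171.2. *PSAN* of photosystem I overlapped, with 13.1 and 3.28 against 8.46 and 32.1. Some members were brighter than these in both genotypes. *LHCB4.1* read 344.1 and 353.6 against 469.0 and 352.0, *LHCB4.3* 242.8 and 209.2 against 293.9 and 317.5, and *PSBY* 284.3 and 331.6 against 304.3 and 233.9. Among them only *LHCB4.3* lay above WT on both *vtc2* arrays, and the difference of *PSBY* was negative (-0.20). In WT zygotic embryos *LHCB4.2* averaged 9809. At D7I the median difference of the list was -0.48.

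Plastid-encoded genes split by array rather than by genotype. The median signal of 69 such genes was 167.5 on WT array 1, 423.4 on WT array 2, 85.2 on *vtc2* array 1 and 719.3 on *vtc2* array 2. All 69 were higher on *vtc2* array 2 than on *vtc2* array 1, by a median of 3.06 (log2), and 60 of 69 were higher on WT array 2 than on WT array 1, by a median of 1.09. The corresponding medians over all probe sets were 0.07 and 0.04. Of the 69, 0 lay above WT on both *vtc2* arrays and 3 (4.35%) lay below, namely *atpE*, *rpl36* and *rpoC1*. Both counts were under the shares of all probe sets, 21.5% and 19.6%. The median difference between genotypes was 0.06.

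The classes of plastid genes shared this pattern. *rbcL*, the large subunit of Rubisco, read 79.8 and 211.9 in WT and 48.0 and 1131.7 in *vtc2*. *psbB*, a core antenna protein of photosystem II, read 53.9 and 258.0 against 2.14 and 1289.3. *atpH*, a subunit of the ATP synthase, read 31.1 and 327.4 against 3.31 and 1811.0, and the sign of its difference and that of *psbB* depended on whether weak signals were offset. The class medians of the genotype difference ran from -0.27 for the 6 ATP synthase genes to 0.43 for the 10 genes of the NADH dehydrogenase-like complex, leaving out the single Rubisco gene. Median signals of the 4 RNA polymerase genes, which encode the plastid's own polymerase, were 322.0 and 348.2 in WT and 164.3 and 359.2 in *vtc2*. A genotype difference in plastid transcripts smaller than this spread was not detectable with these 4 arrays.

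**Figure D4:**
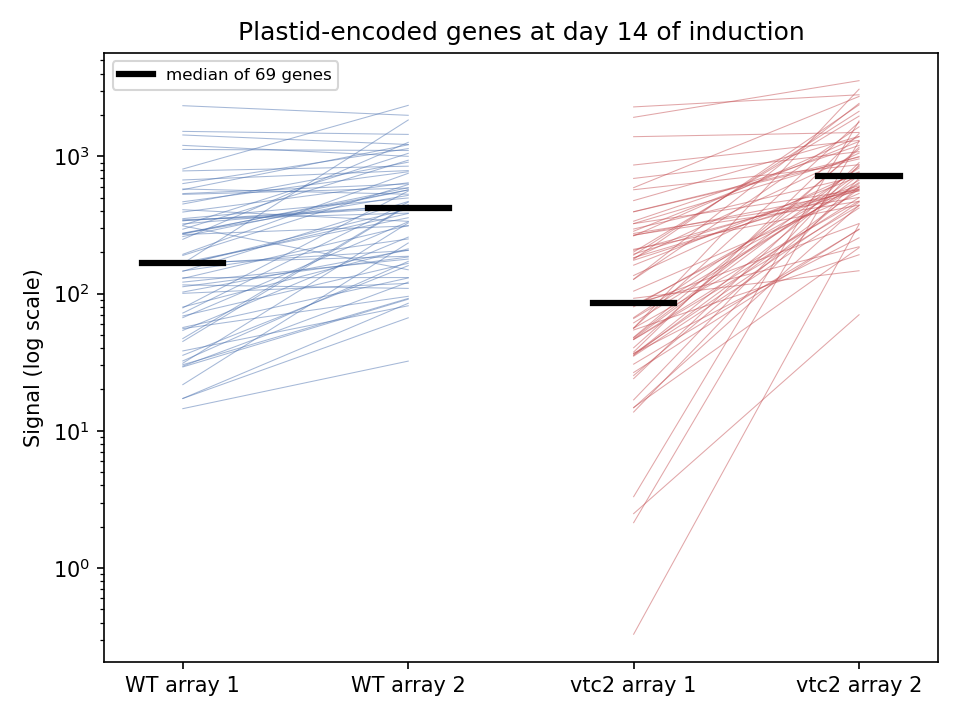
Signals (log scale) of 69 plastid-encoded genes on the 4 D14I arrays, with a thin line joining the 2 arrays of a genotype for each gene and a black bar for the median. Both genotypes have a low array 1 and a high array 2, with medians of 167.5 and 423.4 in WT and 85.2 and 719.3 in *vtc2*.

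Most members of the seed storage and LEA list lay lower in *vtc2*, with standard errors of 1.25 to 2.43 (log2). Of 6 probe sets, 5 were below WT on both arrays and 1 above, against 19.6% and 21.5% of all probe sets, with a median of -0.48. Beside *M17* and *M10*, described above, *LEA4-5* read 10148.5 and 10140.7 in WT and 7486.0 and 7006.5 in *vtc2*, and *LEA18* 8682 and 7714 against 5434 and 6318. *PAP85* read 7266.9 and 7140.5 against 6219.8 and 6379.1, a difference of only -0.19 ± 1.63. *OLEO3*, an oil body protein, was the exception, with 2899.3 and 2796.9 against 3527.6 and 3281.7. Since 0 of 10 seed storage markers had a probe set, the list mainly describes LEA genes. At D7I the median of the list was -1.02. These transcripts were abundant in callus of both genotypes, and *LEA18* averaged only 408.4 in WT zygotic embryos.

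Auxin response genes had a slightly negative median. Of 14 probe sets, 7 (50%) were below WT on both arrays and 1 (7.14%) above, where the shares of all probe sets were 19.6% and 21.5%, and the median was -0.19. The repressor *IAA29* read 190.3 and 169.3 in WT and 107.5 and 121.5 in *vtc2*. *GH3.9* read 23.2 and 34.4 against 23.1 and 10, and *IAA34* 16.9 and 27.9 against 13.3 and 16.5. *IAA20*, which has a noncanonical Aux/IAA protein, was above on both arrays, with 327.4 and 346.4 against 447.1 and 479.3. At D7I the list's median was 0.08.

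WRKY transcription factors, many of which act in defence and senescence, had the lowest median, -0.49, with 3 of 7 (42.9%) below WT on both arrays and 0 above, beside 19.6% and 21.5% of all probe sets. *WRKY6* read 622.2 and 633.3 in WT and 426.0 and 370.8 in *vtc2*, *WRKY47* 370.5 and 333.5 against 225.9 and 241.4, and *WRKY20* 398.5 and 425.3 against 276.8 and 309.5. *WRKY42* was weak on all arrays. Of 10 regulators of wound, touch and chitin responses, of which 3 are also in the WRKY list, 4 (40%) were below and 1 (10%) above, beside the same shares, with a median of -0.30. *STZ*, a zinc finger repressor of stress responses, read 350.9 and 365.0 against 271.6 and 241.1. The ubiquitin ligase *PUB22* read 134.1 and 136.3 against 96.7 and 105.2.

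UDP-glycosyltransferases, which attach sugars to hormones and phenolics, formed the largest nuclear list. Of 51 genes, 24 (47.1%) were below WT on both arrays and 10 (19.6%) above, against 19.6% and 21.5% of all probe sets, and the median was -0.26. A 2-fold difference was seen in 3 upwards and 5 downwards. The largest differences were at low signals, of at most 75, and ran both ways. *UGT84A1*, which glucosylates hydroxycinnamic acids, read 2.52 and 14.9 in WT and 61.0 and 34.1 in *vtc2*, and *UGT85A7* 8.50 and 11.4 against 75 and 60. *UGT73C1* read 17.2 and 6.37 against 1.77 and 4.00, and *UGT85A3* 17.3 and 41.6 against 3.16 and 16.2. At D7I the median of the list was -0.04.

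Of 37 wall modification genes, 10 (27.0%) were above and 11 (29.7%) below, against 21.5% and 19.6% of all probe sets, with a median of -0.09. *EXPA15*, which was higher in *vtc2*, has been described. Other expansins were lower on both *vtc2* arrays. *EXPA8* read 1036.7 and 989.6 in WT and 647.6 and 490.5 in *vtc2*. The expansin-like *EXLA1* read 3201.6 and 3794.0 against 2083.1 and 2195.0. *EXPA7*, an expansin of root hairs, read 28.6 and 7.39 in WT and 37.3 and 45.8 in *vtc2*. *IRX15-L*, which acts in xylan synthesis, read 22.8 and 31.1 against 17.9 and 9.00. *XTH26* was weak except on *vtc2* array 2, where it read 33.9 against 2.16 on array 1. Flavonoid genes had a median of 0.35 over 5 members, of which 2 were above and 2 below. *UGT78D1*, a flavonol glycosyltransferase, read 167.0 and 181.1 against 288.0 and 221.9, whereas *DFR* was lower as given above.

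The remaining lists with at least 5 probe sets had medians between -0.08 and 0.04. Among 15 sugar transport and metabolism genes, 2 (13.3%) were above WT on both arrays and 2 (13.3%) below, against 21.5% and 19.6% of all probe sets. *SWEET1*, a glucose transporter, read 332.2 and 314.4 in WT and 487.4 and 585.5 in *vtc2*, and *cwINV6*, which cleaves fructans, 33.3 and 34.9 against 63.9 and 64.7. *SWEET13* read 67.2 and 68.8 against 33.6 and 56.7. Among 7 starch probe sets, *APL3*, a subunit of ADP-glucose pyrophosphorylase, read 277.9 and 300.2 against 181.5 and 189.1. Of 7 histone genes, the drought-inducible linker histone *HIS1-3* read 2138.8 and 1904.4 against 1245.6 and 1449.1. Of 5 jasmonate genes, the defensin *PDF1.2* read 105.4 and 101.0 against 64.0 and 63.6. Of 7 glucosinolate genes, *BCAT4*, which starts methionine chain elongation, read 49.8 and 55.0 against 90.1 and 83.4. Of 6 cell cycle genes, *AUR2*, an Aurora kinase, read 477.3 and 386.1 against 497.3 and 469.6.

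Genes of ascorbate metabolism other than *VTC2* differed little where they could be read, by at most 0.47 (log2). In the synthesis pathway, *GME*, GDP-mannose epimerase, read 2050.7 and 1963.3 in WT and 2053.3 and 2088.4 in *vtc2*. *VTC4*, which removes phosphate from galactose phosphate, read 868.5 and 805.1 against 1037.1 and 1153.2. *GLDH*, the mitochondrial enzyme of the last step, read 578.6 and 502.3 against 397.3 and 380.1 (-0.47 ± 0.17, adjusted p = 0.956). *PMM*, phosphomannomutase, read 4945.0 and 5069.8 against 3746.7 and 3854.5. In the ascorbate-glutathione cycle, *GR1*, the cytosolic glutathione reductase, read 3346.0 and 3307.2 against 2881.1 and 2929.0, and the stromal ascorbate peroxidase *SAPX* 255.3 and 292.3 against 356.9 and 377.0. *GR*, the organellar reductase, and *TAPX*, the thylakoid peroxidase, overlapped between genotypes. None of these 8 genes passed the test.

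The probe sets called at D7I differed less at D14I. D7I and D14I share no arrays, so the probe sets called at D7I can be read at D14I. The 451 called higher at D7I had a median difference of 1.45 there and of 0.12 at D14I, and the 163 called lower had -1.60 and -0.16. At D14I both *vtc2* arrays lay above WT for 45.9% of the former and below WT for 13.1%. For the latter the shares were 19.6% above and 41.1% below, and over all probe sets 21.5% and 19.6%. The D14I difference was positive in 302 of the 451, in 56 of the 163 and in 11913 of all 22746. The sign was thus kept more often than over all probe sets while the median was smaller, in probe sets that were chosen for their size at D7I. A difference of at least 2-fold in the same direction and without overlap was found at D14I for 17 of the 451 (3.77%) and 7 of the 163 (4.29%). Over all probe sets these shares were 3.79% and 2.27%, so the first lay near that of all probe sets. Most 2-fold differences over all probe sets were weak, and the sets were not matched for signal.

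**Figure D5:**
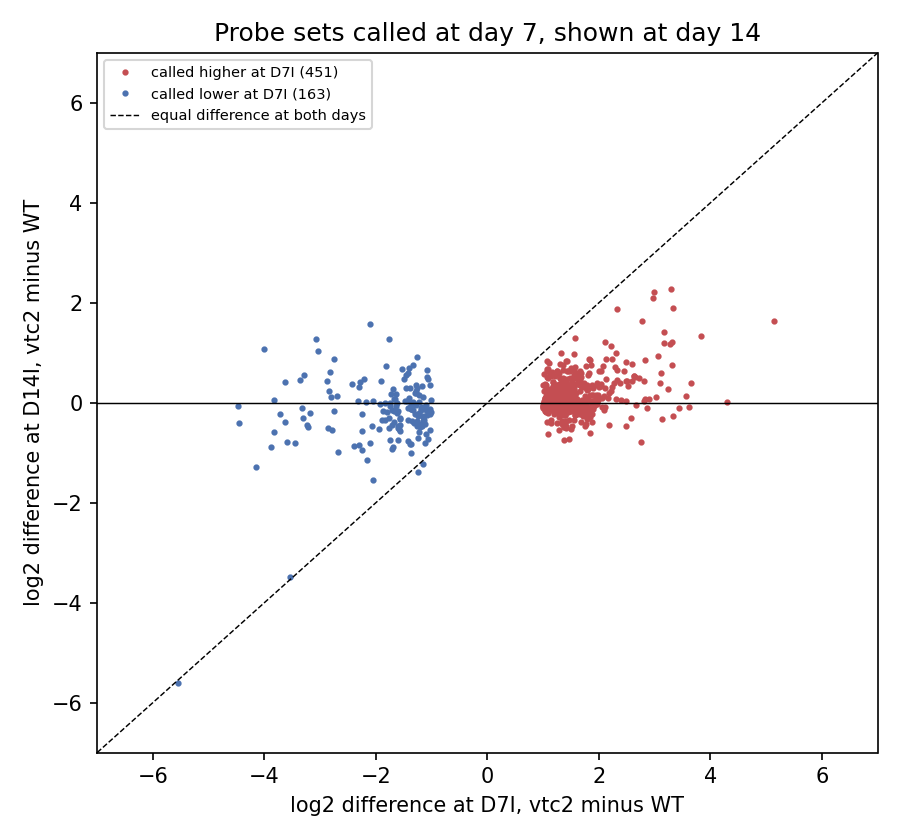
Log2 difference (*vtc2* minus WT) at D7I (x) and D14I (y) for the probe sets called at D7I; the dashed line marks equal differences. Most points lie near 0 at D14I, with medians of 0.12 for the 451 called higher (red) and -0.16 for the 163 called lower (blue); the lowest point is the unpaired probe set called at both days.

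Of those 17 and 7 probe sets, 13 and 4 are paired with a gene, and a few are named after their values were seen. *AT5G19250*, a glycosylphosphatidylinositol-anchored protein, read 60.6 and 34.5 in WT and 232.2 and 222.5 in *vtc2* at D7I, then 95.3 and 120.7 against 221.7 and 209.3 at D14I. The IQ-domain gene *iqd15* read 175.3 and 85.2 against 416.6 and 771.1 at D7I, then 152.9 and 94.1 against 278.5 and 246.9. *AT5G24240*, a phosphatidylinositol kinase-like protein, read 66.6 and 33.8 against 4.62 and 3.60 at D7I, then 73.6 and 78.7 against 2.5 and 18.4. *PUB19*, described above, was lower at both days. The difference between days was called for none of these 4 genes.

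The test of the difference between days called 3 probe sets (0.0132%), none paired with a gene, while 2538 had an unadjusted p under 0.05. Of the 451 probe sets called higher at D7I, 89.8% were among the latter, and of the 163 called lower, 82.2%. Since these were chosen for their size at D7I, that share is a description. Closest to the threshold among named genes was *AT1G33055*, a short gene known for induction by low oxygen. At D7I it read 219.2 and 116.8 in WT and 1654.2 and 1554.5 in *vtc2*, and at D14I 5692.6 and 5063.3 against 4492.9 and 4469.1, a change of the effect of -3.59 ± 0.43 (adjusted p = 0.0543). Both WT arrays thus lay above both *vtc2* arrays at D14I.

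*AT1G10140* took the same course, with means of 86.2 in WT and 364.8 in *vtc2* at D7I and signals of 724.7 and 633.7 against 637.3 and 597.8 at D14I. *AT3G11100*, a trihelix transcription factor, averaged 46.5 and 207.0 at D7I and read 287.4 and 234.2 against 255.5 and 298.4 at D14I. *SCPL27*, a serine carboxypeptidase-like gene, averaged 12.8 and 87.8 at D7I and read 107.3 and 103.2 against 154.6 and 131.4. The WT and *vtc2* arrays overlapped at D14I for *AT1G10140* and *AT3G11100* but not for *SCPL27*. The genotype effect on *AT1G09600*, a protein kinase, was also lower at D14I than at D7I, with means of 76.8 in WT and 97.2 in *vtc2* at D7I and signals of 67.5 and 67.9 against 35.1 and 33.6 at D14I. For these 4 genes the adjusted p of the change was 0.104 to 0.108.

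In the other direction, *AT2G25510* averaged 218.5 in WT and 52.3 in *vtc2* at D7I but read 86.8 and 110.4 against 298.7 and 282.3 at D14I, a change of 3.67 ± 0.45 (adjusted p = 0.0543). In somatic embryos it averaged 611.9 in WT and 4341 in *vtc2*. *GSTU20* averaged 401.2 and 181.3 at D7I and was higher in *vtc2* at D14I as described above (adjusted p = 0.108). *AT5G15950*, an S-adenosylmethionine decarboxylase of polyamine synthesis, averaged 141.4 and 79.7 at D7I and read 72.9 and 59.8 against 141.1 and 111.9 at D14I (adjusted p = 0.104).

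Against the other stages, the genotype effect at D14I differed from that in zygotic embryos for 2 probe sets (0.00879%) and from that in somatic embryos for 23 (0.101%). Of the 2, 1 is not paired and the other, *AT2G43390*, was weak in callus. Of the genes named above, *AT1G33080* was called, since its signal was higher in *vtc2* at D14I but averaged 563.1 in WT and 187.7 in *vtc2* in somatic embryos, a change of 2.71 (adjusted p = 0.0289). *AT5G38170* averaged 59.6 in WT and 2763 in *vtc2* somatic embryos and *AT5G38160* 137.7 and 1015.5, the same direction as at D14I, whereas in zygotic embryos the *vtc2* means were 18423 and 16779. Of the 20 genes with higher signals at D14I, 13 were higher in *vtc2* at D7I too, 13 in somatic embryos and 8 in zygotic embryos. Of the 20 with lower signals, 16, 7 and 15 were lower at these stages. The median difference over all probe sets at D7I was 0.0. The share of all probe sets with each sign at these stages was not counted, so these counts are a description. The D14I differences of *M17*, *M10* and *AT3G22490* had the same sign at D7I, where the means were 3487 and 2061, 3150.2 and 1762, and 2469.5 and 476.1.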

How the data were processed

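The authors hybridised labelled RNA to Affymetrix ATH1 arrays, 2 per group. The deposited intensities are linear and scaled to a 2% trimmed mean of 500 per array. The methods describe RMA, which these values are not, and the summarisation behind them is not given in the sources used here. Of the probe sets, 22746 were tested and 64 controls set aside. The platform annotation paired 13513 with 1 gene, 503 with several and 8730 with none, and only the first were named. Several genes of interest, *VTC2* among them, were not paired and were not analysed here.

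The log2 intensities were fitted in limma 3.58.1 (R 4.3.3) with 1 mean for each of the 8 groups, so that the spread came from all 16 arrays. P-values were adjusted over all probe sets (Benjamini-Hochberg), and a call needed an adjusted p under 0.05 and a 2-fold difference. Differences of the genotype effect between stages were contrasts of the same fit. The multiclass test of the methods covers all groups at once and was not used. The fit was tested on simulated data.

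Named genes were those called, the 20 each way with the largest difference and no overlap at a signal of at least 100, genes that the study discusses at this stage, the 4 most different members of each list with at least 5 probe sets, and the 8 each way with the smallest adjusted p between D7I and D14I. Text names a part of these. Marker genes, *LHCB4.1*, *LHCB4.3*, *PSBY*, ascorbate genes, *OLEO3*, *PAP85*, *EXPA8*, *EXLA1*, *IAA20*, the plastid genes below WT, *AT2G43390*, *AT5G19250* and *AT5G24240* were added after their values were seen. The comparison, the lists and the rules were chosen with earlier results of these data known. The symbols of 4 list entries belonged to other genes and were removed. Over the series as a whole, replicate numbers did not pair arrays. Across 28 pairs of groups, same-numbered arrays correlated in their deviations at -0.14 to 0.16. The median was -0.02, and 3 pairs were over 0.1. The highest value, 0.16, was that of the WT and *vtc2* D14I groups compared here, so the statement for the series does not cover them. Same-numbered D14I arrays also moved alike in the ribosomal RNA control and in most plastid-encoded genes, as given above. The main fit had no replicate term, and the cause of this shared difference was not tested. Alternatives changed the treatment of weak signals, scaling, variance model, array weights, arrays in the fit and replicates.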

Additional observations from a re-analysis of the deposited data

Results flagged for a closer look

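The genotype effect differed between D14I and another stage, by limma's test of that difference, for 3 probe sets against D7I, 2 against zygotic embryos and 23 against somatic embryos. Among the genes named, the effect on *AT1G33080* was higher at D14I than in somatic embryos by 2.71 (log2, adjusted p = 0.0289). The effect on *AT2G43390* was higher at D14I than in zygotic embryos by 6.97. Its signals were 2.03 and 1.79 in WT and 2.33 and 2.76 in *vtc2* at D14I. They were 106.9 and 43.2 in WT and 0.459 and 1.14 in *vtc2* zygotic embryos. All but the WT zygotic embryo signals were weak, so the size of this change is uncertain.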

How the results depend on the processing

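With 2 arrays per group and weak signals in most calls, the counts moved with the processing. At D14I the 5 calls became 1 with an offset of 30, 18 with array weights, 1 with the D7I and D14I arrays only, and 0 with the D14I arrays only, where 1917 probe sets had an unadjusted p under 0.05. Without the somatic embryo arrays, a choice made after seeing the data, limma called 0 (1250 at an unadjusted p under 0.05). A 2-fold difference with no test gave 2294, and leaving out 1 array gave 3 to 7, the lowest without WT array 1, and 0 higher and 4 lower without *vtc2* array 2. With the replicate block, 4 were called over all arrays and 0 over the D14I arrays (1598 at an unadjusted p under 0.05).

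Against D7I, the 3 calls became 6 with a signal of at least 30, 73 with the offset, 7 with quantile normalisation, 5 with median centring, 201 with array weights, 84 with a trended prior, 0 with the replicate block (2366 at an unadjusted p under 0.05) and 0 without somatic embryos (3183), and 0 to 6 with 1 array left out. Against zygotic embryos, the 2 calls became 1 with the offset, 0 with quantile normalisation (1332), 4 with array weights, 1 with the replicate block, 1 without somatic embryos and 0 whichever array was left out. Against somatic embryos, the 23 calls became 176 with a signal of at least 30, 532 with the offset, 98 with quantile normalisation, 59 with median centring, 340 with a trended prior, 1 with the replicate block and 0 to 7 with 1 array left out. The cause was not tested.

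Of 1484 alternative values of 93 genes, 17 changed sign, in 9 genes that were not called. With the offset, *psbB* was 0.41 and *atpH* 0.74, and with quantile normalisation *LBD29* was -0.0895. With 1 array left out, the difference ran from -5.79 to 3.45 for *psbB*, -4.93 to 4.17 for *atpH*, -1.44 to 3.12 for *rbcL*, -1.33 to 0.17 for *WRKY42*, -0.058 to 0.237 for *AT3G11100*, -1.89 to 1.19 for *CLV3*, -0.102 to 0.029 for *GR*, -1.22 to 1.69 for *LBD29* and -0.858 to 0.061 for *TAPX*. *AT1G75460* lost its call in 10 alternatives (adjusted p 0.062 to 0.665). *AT1G23000* and *AT1G33080* gained one with array weights (0.0264 and 0.0397), *LHCB4.2* without WT array 1 (0.0388) and *AT5G24240* without *vtc2* array 2 (0.03). List medians changed sign in 18 of 135 values, in none of the nuclear photosynthesis, seed storage, auxin, WRKY, wound, flavonoid or glycosyltransferase lists. Scaling moved the median of all probe sets by at most 0.04.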
